A study of Caenorhabditis elegans with 4 samples.

Results

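MRG-1 peaks of adult Caenorhabditis elegans were read over 6 genes: mrg-1, which encodes the precipitated protein itself, and mes-4, met-1, mes-2, mes-3 and mes-6, which encode the makers of H3K36 and H3K27 methylation in the germline. They were chosen by symbol from the WBcel235 gene table of RefSeq, where all 6 of 6 were found among 19971 protein-coding genes on the nuclear chromosomes. MRG-1 peaks lay over all 6 genes in replicate 2, against 28.1% of all protein-coding genes, and over 4 of them in replicate 1, against 30.2%. Both replicates covered mrg-1 and mes-6 from end to end. The same held for 12.7% of autosomal protein-coding genes and for 6.85% of protein-coding genes 2.2 to 10.5 kb long, the length range of the 6. The mes-4 and mes-3 genes were covered to differing extents in each replicate, and mes-2 and met-1 in replicate 2 only.

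MRG-1 is the worm MRG15 protein, a chromodomain protein of the family that binds nucleosomes carrying methylated H3K36, and the maternal supply of it is needed for the germline to survive. MES-4, an NSD family enzyme, and MET-1, the SET2 enzyme, put methyl groups on H3K36 in the bodies of expressed genes. MET-1 acts with transcription, while MES-4 can maintain the mark on germline genes in embryos without it. MES-2, MES-3 and MES-6 form the worm PRC2 complex, which methylates H3K27 and keeps genes silent, and loss of any mes gene in the mother leaves her offspring sterile.

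Hermaphrodites with the fem-2(b245) mutation, kept at 20 °C, gave all 4 samples of the series. Chromatin was precipitated with a purified antibody raised against MRG-1 in 2 of them, and the other 2 are input DNA. No group lacks the fem-2(b245) allele, in a gene of the pathway that promotes male fate and sperm formation, so wild-type animals are not represented. The labelled stage is a young adult that has a germline, while the growth protocol describes gravid animals. Whole animals were extracted, so a peak cannot be given to a tissue, and fewer cells that carry a site cannot be told apart from less MRG-1 per cell.

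For each precipitated sample there is a list of peaks, and a further list covers the series as a whole; the input samples are not analysed here. Replicate 1 has 2769 peaks (16.7 Mb), replicate 2 has 3895 (13.1 Mb), and the series-wide list 12147 (14.8 Mb). Read numbers are not part of these lists and the depth behind a peak is therefore unknown. Nothing in the labels ties the replicates to separate cultures, so each SD is the spread between 2 samples, which may be technical. Peak positions are on WormBase WS220. Gene spans come from another build, which lies within about 200 bp of it according to the rule used to choose the genes, so a gene edge is good to about 200 bp, and distances from genes are given in kb. The gene table gives no strand, so left and right mean the lower and the higher coordinate, not the 5′ and 3′ end.

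Together the 6 genes span 31.7 kb. Replicate 1 peaks covered 45.9% of these bases, replicate 2 peaks 67.5% and series-wide peaks 70.4%. Over all autosomal protein-coding genes, peaks covered 25.3%, 20.6% and 23.0% of the gene bases in the same lists. The median cover of the 6 genes was 83.1% in replicate 1 and 84.0% in replicate 2, while the median over all protein-coding genes was 0 in both. All 6 genes are on autosomes, and X, where MRG-1 peaks are rare, holds 2730 of the genes in this background.

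A peak over at least 1 bp of the gene was found for 4 of the 6 in replicate 1, against 30.2% of all protein-coding genes, and for 6 of 6 in replicate 2, against 28.1%. The series-wide list also had one on all 6, against 32.7%. In both replicates together, 4 of the 6 had a peak, mrg-1, mes-4, mes-6 and mes-3, against 24.4% of all protein-coding genes. Of autosomal genes, and also of genes in the length range of the 6, 2.2 to 10.5 kb, 28.1% had a peak in both.

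Cover of at least 50% of the gene was reached by 4 of the 6 in replicate 1, against 22.7% of all protein-coding genes, namely mrg-1, mes-4, mes-6 and mes-3. A different set of 4 reached it in replicate 2, mrg-1, mes-6, mes-2 and met-1, against 20.1%, and in the series-wide list all but mes-3 did, against 22.5%. Only mrg-1 and mes-6 reached it in both replicates, 2 of 6 against 17.0% of all protein-coding genes and 19.6% of autosomal ones. These counts carry no test, since 6 genes chosen by name are not a sample and the data hold 1 condition.

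**Figure D1:**
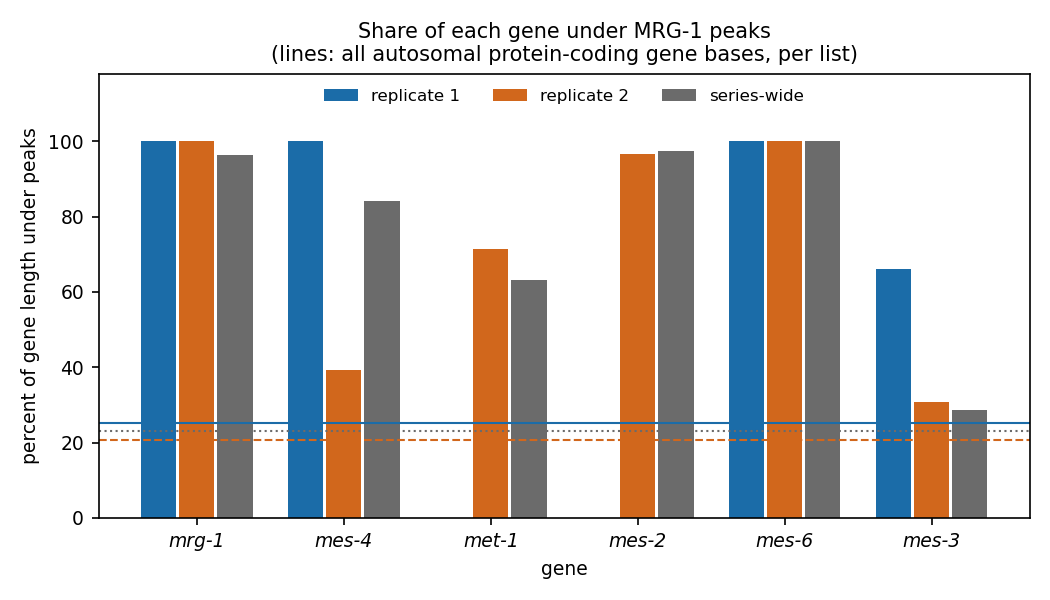
Percent of each gene's length under MRG-1 peaks (y axis) for the 6 genes (x axis), with 1 bar for each of the 3 lists, and horizontal lines for the percent of all autosomal protein-coding gene bases covered in each list. The mrg-1 and mes-6 bars reach 100% in both replicates, and mes-2 and met-1 have no bar in replicate 1.

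The mrg-1 gene (Y37D8A.9), 3.6 kb on III, lay wholly inside 1 wide peak in each replicate. Cover was 100% in each replicate, a mean of 100% ± 0 (SD, n = 2), while series-wide peaks left a short gap and reached 96.4%. The replicates did not differ over the gene itself. In replicate 1, 82.2% of all protein-coding genes and 71.6% of those on III were less covered; in replicate 2 these shares were 87.1% and 76.8%.

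The peak over mrg-1 in replicate 1 ran from base 12869882 to 12882250 of III, a width of 12.4 kb, and that of replicate 2 from 12870272 to 12881838, a width of 11.6 kb. Their starts differed by 390 bp and their ends by 412 bp, and the replicate 2 peak lay wholly within that of replicate 1. Both had a score of 3100, a value that recurs 554 times in replicate 1 and 272 times in replicate 2. A score comes from the authors and ranks a peak only against others of its list. In replicate 1, 78.8% of the peaks scored lower, and in replicate 2, 92.1% did. These shares leave out the tied peaks. From the top, the tied score ranked 34 of 2769 in replicate 1 and 36 of 3895 in replicate 2.

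The mrg-1 gene took up only the left part of this domain, 29.3% of the replicate 1 peak and 31.4% of the replicate 2 peak. To the right, the same peaks covered spcs-2, which encodes a signal peptidase subunit, cec-7, which encodes another chromodomain protein, and enu-3.5, each to 100% in both replicates. They ended within unc-71, which encodes an ADAM protease family protein. The mrg-1 peak held 11.3% of unc-71 in replicate 1 and 7.44% in replicate 2; with a separate peak further right, the gene's total cover was 56.8% and 50.6%. To the left the peaks reached 1.1 and 0.8 kb beyond mrg-1, and the next gene on that side, Y37D8A.8, had no peak in any of the 3 lists. Beyond these peaks the next ones to the left were 46.5 kb away in replicate 1 and 48.8 kb in replicate 2, so mrg-1 stood at the left edge of its domain in both. Peaks that touch 5 or more genes, as these did, made up 14.9% of the autosomal peaks of replicate 1 and 5.75% of those of replicate 2.

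**Figure D2:**
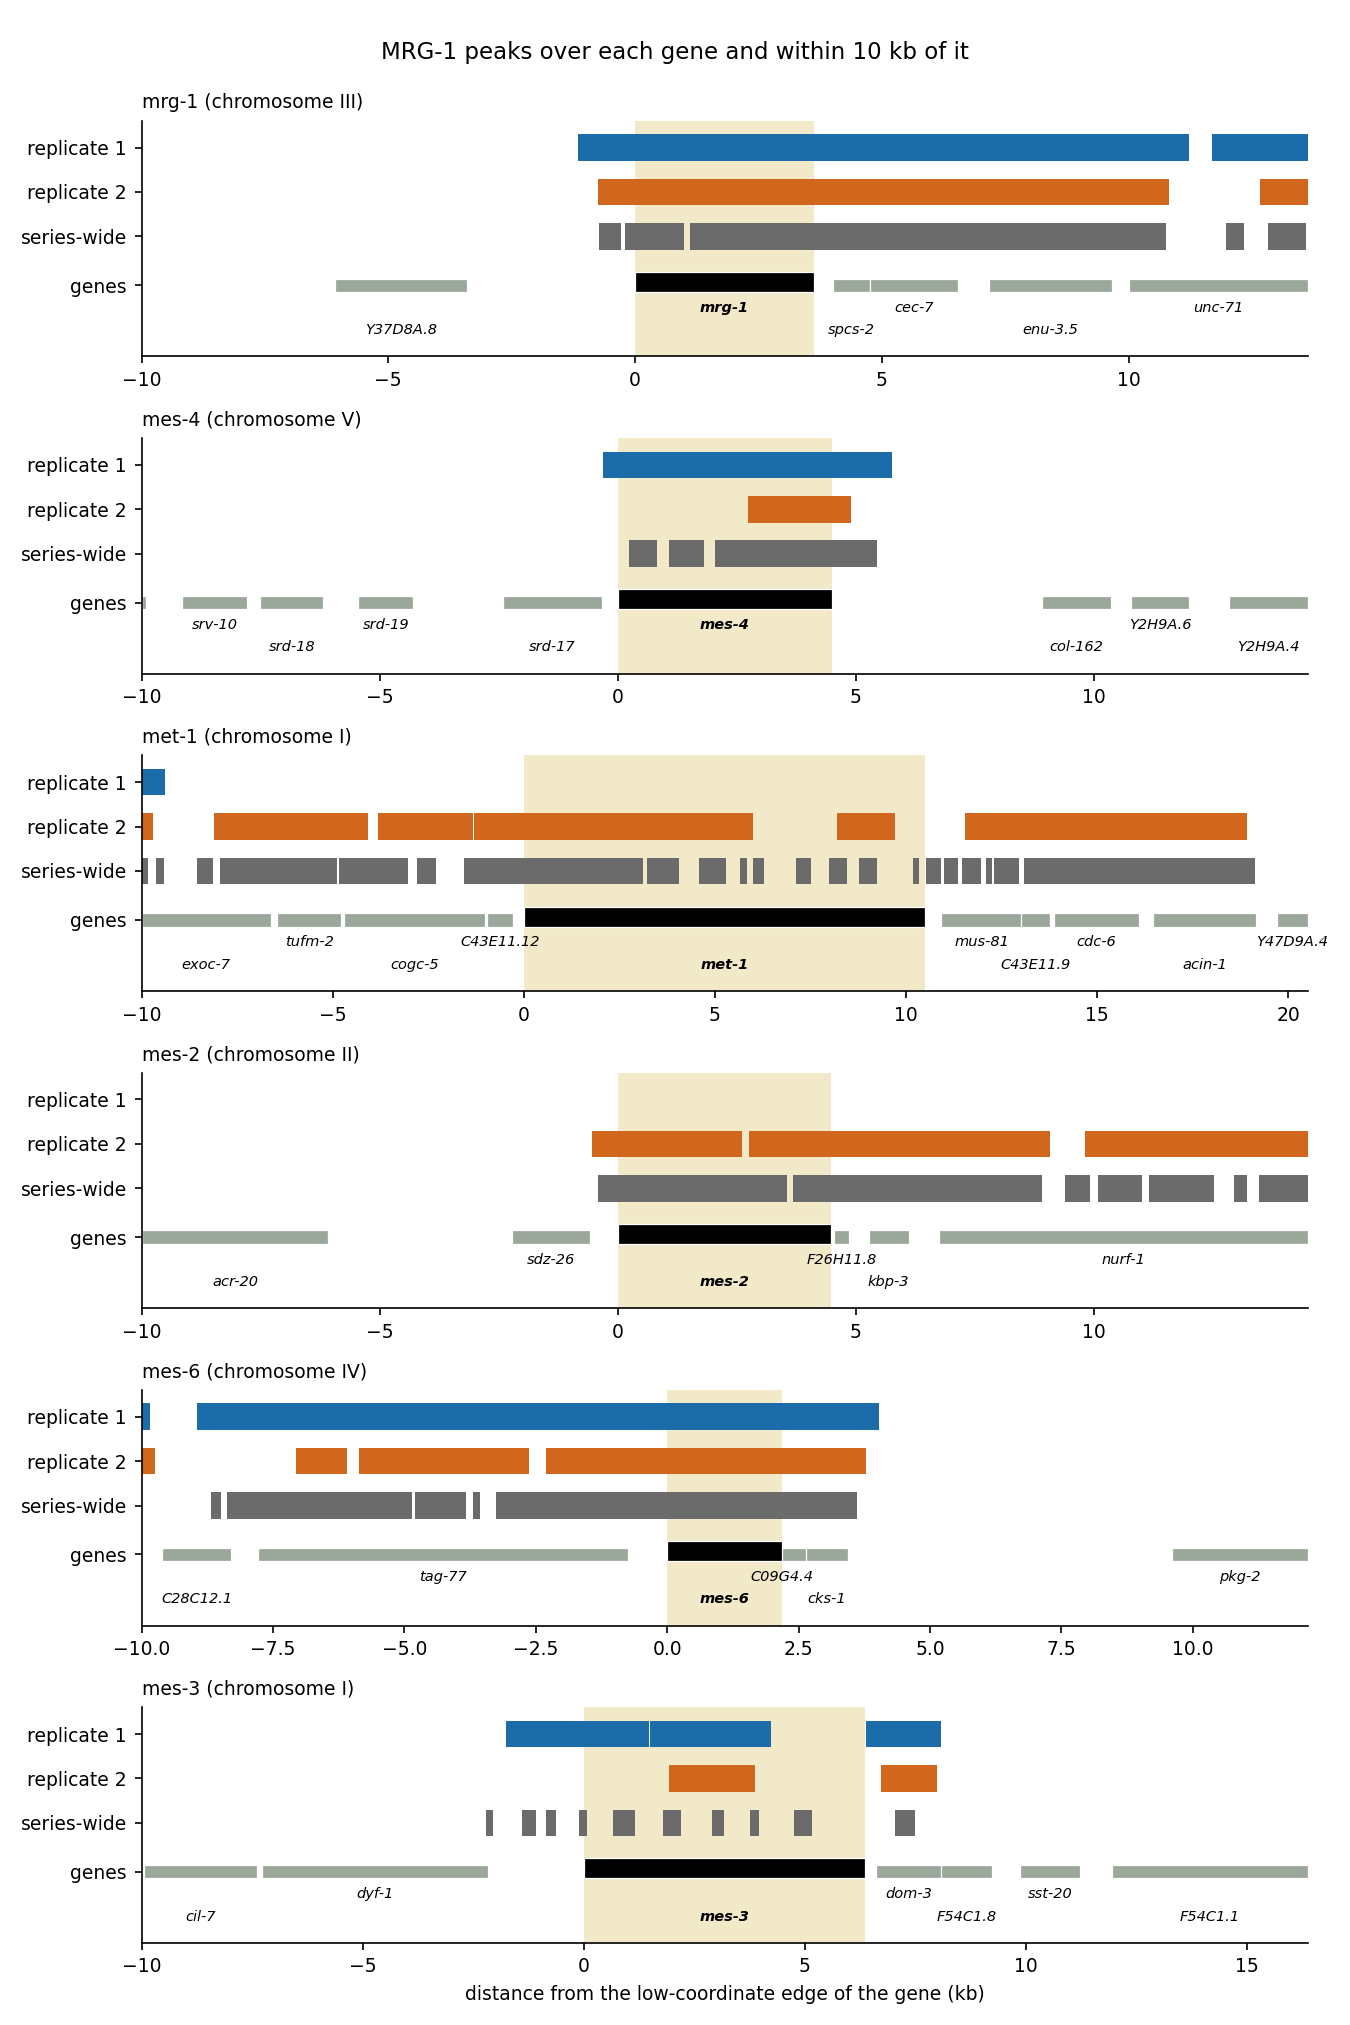
Peaks of replicate 1, replicate 2 and the series-wide list (coloured blocks) and protein-coding genes (grey, with the named gene in black and its span shaded) within 10 kb of each gene; the x axis is the distance in kb from the low-coordinate edge of the gene, good to about 200 bp. The left part of C09G4.4 lies behind mes-6, which it overlaps. The mrg-1 and mes-6 genes sit inside peaks that run on over their neighbours, the mes-4 peaks have no other peak near them, and mes-2 and met-1 have no peak in replicate 1.

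Of the genes for the H3K36 enzymes, mes-4 (Y2H9A.1), 4.5 kb on V, carried 1 peak in each replicate. Replicate 1 covered 100% of it and replicate 2 39.3%, a mean of 69.6% ± 42.9 (SD, n = 2); series-wide peaks covered 84.1%. The replicates agreed on the right end of the gene and differed on the rest: with the gene cut into 10 equal parts from left to right, replicate 2 had no cover in the first 6 and 92.9% to 100% in the last 4. On V, the least covered autosome, 88.5% of the genes had less cover in replicate 1 and 87.7% in replicate 2.

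The mes-4 peak of replicate 1 ran from 13432742 to 13438816 of V (6.1 kb), with a score of 2258.36 that stood above 69.8% of that list. The replicate 2 peak ran from 13435780 to 13437948 (2.2 kb), with a score of 674.27 that stood above 63.0% of its list. The series-wide list had 3 peaks there, and the rightmost and highest, from 13435089 to 13438493, scored above 88.7% of the list. Its left edge lay closer to that of replicate 2 than to that of replicate 1. The leftmost of the 3 began at 13433296, closer to the left edge of replicate 1.

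Unlike the peaks over mrg-1, those over mes-4 touched no other gene and had no near neighbour. All 8 protein-coding genes within 10 kb had no peak in any of the 3 lists. On the left these were srd-17, srd-19, srd-18, srv-10 and srv-9, members of chemoreceptor families, and on the right the collagen gene col-162, Y2H9A.6 and 1 gene beyond it. The nearest other peaks were 22.5 kb to the left and 18.8 kb to the right in replicate 1, and 26.3 and 24.5 kb in replicate 2. Only 15.1% of the autosomal peaks of replicate 1 and 4.90% of those of replicate 2 were at least as far from the nearest other peak. In a count made after these values were seen, none of the 30 srv genes of the genome had a peak in any list, and 5 of the 67 srd genes had one in both replicates. The left edge of the replicate 1 peak and the right edge of srd-17 were both about 0.3 kb from mes-4, which is too close to the 200 bp limit to say whether they meet.

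The second gene for an H3K36 enzyme, met-1 (C43E11.3), 10.5 kb on I, had no peak in replicate 1 and 3 in replicate 2. Its cover was 0% and 71.4%, a mean of 35.7% ± 50.5 (SD, n = 2), and 9 series-wide peaks covered 63.2%. With 1 of the 2 values at 0% the SD always exceeds the mean. The replicates differ on whether met-1 has a peak at all, so its level is not fixed by them. In replicate 2, 82.2% of all genes and 71.2% of those on I were less covered.

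Cover of met-1 in replicate 2 was densest on the left. With the gene in 10 equal parts, the first 5 were covered to 99.2% or more, the next to 71.3%, and the last 4 to 0%, 19.2%, 100% and 24.7%. The first peak, from 4252885 to 4258798 of I, scored 2316.34, above 87.3% of the list, and covered the left 43.8% of the gene. The other 2 covered 13.2% and 14.4% of the gene and scored above 21.8% and 17.3% of the list. The highest and widest series-wide peak over met-1 also lay at the left, from 4252631 to 4257311, above 87.3% of that list.

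The absence of met-1 from replicate 1 was shared by the genes around it. Of its 9 protein-coding neighbours within 10 kb, 8 were covered over at least 50% in replicate 2, against 20.1% of all protein-coding genes. None reached this in replicate 1, against 22.7% of all. In that replicate only exoc-7, an exocyst gene at the left margin, had a peak. On the right, cdc-6, needed to license replication origins, stood at 100% in replicate 2 against 0% in replicate 1, and mus-81, which encodes a DNA repair endonuclease, at 70.1% and 0%. On the left, tufm-2, a gene for a mitochondrial elongation factor Tu, stood at 100% and 0%, and cogc-5, of the Golgi COG complex, at 92.0% and 0%. Replicate 1 had no peak for 56.5 kb, from 4244801 to 4301260 of I, a stretch in which replicate 2 had 6 peaks over 22.7 kb and the series-wide list 19 over 22 kb. Joined over gaps of up to 1 kb, the series-wide peaks formed a run of 32.6 kb across met-1, and 8 of the 821 runs on I were longer. In replicate 2 the same joining split met-1 between a run of 14.1 kb and one of 1.5 kb. Of the 625 replicate 2 runs on I, 50 were longer than the first and 460 longer than the second.

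Of the PRC2 genes, mes-6 was covered alike by both replicates, and mes-2 and mes-3 were not. The mes-2 gene (R06A4.7), which encodes the enzyme of the complex, the worm E(z) protein, spans 4.5 kb on II. Replicate 1 had no peak on it and replicate 2 covered 96.6%, a mean of 48.3% ± 68.3 (SD, n = 2); series-wide peaks covered 97.3%. As for met-1, the replicates differ on whether the gene has a peak at all, so its level is not fixed by them.

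Both peaks over mes-2 in replicate 2 were high in score. The left one, from 14383421 to 14386575 of II, scored 1233.09, above 74.2% of the list, and the right one, from 14386728 to 14393047, had the shared score 3100, above 92.1%. The right series-wide peak, from 14387644 to 14392870, scored 52.82 and ranked 200 of 12147, the highest rank of any series-wide peak over the 6 genes. The right peaks ran on over F26H11.8 and the kinetochore gene kbp-3 into nurf-1, which encodes a subunit of the NURF nucleosome remodeller. F26H11.8 and kbp-3 were covered to 100% in replicate 2. The peak over mes-2 held 13.6% of nurf-1, whose total cover, with further peaks, was 82.9%. All of these genes were at 0% in replicate 1. On the left, sdz-26, about 0.6 kb away, and acr-20, which encodes an acetylcholine receptor subunit, had no peak in any list with the gene spans as given. The replicate 2 and series-wide peaks over mes-2 began within 200 bp of sdz-26, too close to say whether they meet.

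Replicate 1 had no peak for 118.5 kb around mes-2, from 14322236 to 14440692 of II. In this stretch replicate 2 had 9 peaks over 47.4 kb and the series-wide list 27 peaks over 47.6 kb. Of the 20 protein-coding genes wholly inside it, 12 were covered over at least 50% in replicate 2, against 20.1% of all protein-coding genes. Genes covered over at least 50% in replicate 2 with no peak at all in replicate 1, as mes-2 and met-1 are, made up 2.92% of all protein-coding genes. The reverse pattern, at least 50% in replicate 1 and none in replicate 2, was found for none of the 6 genes and for 2.40% of all. Of the 1215 series-wide peaks in the top 10% by score, 8.07% overlapped a replicate 2 peak and no replicate 1 peak. What sets the replicates apart here was not tested.

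The mes-6 gene (C09G4.5), which encodes the WD-repeat subunit, the worm Extra sex combs protein, spans 2.2 kb on IV. Each replicate covered 100% of it, a mean of 100% ± 0 (SD, n = 2), and alone among the 6 genes it was also at 100% by series-wide peaks. The replicate 1 peak ran from 8502338 to 8515321 of IV (13 kb) and the replicate 2 peak from 8508984 to 8515071 (6.1 kb). Their right ends differed by 250 bp and their left ends by 6646 bp, where replicate 2 had 2 further peaks in place of 1 wide one. The replicate 1 peak scored 3128.25, rank 27 of 2769 from the top, the highest rank of any replicate 1 peak over the 6 genes. The replicate 2 peak had the shared score 3100.

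The mes-6 domain also held other genes. C09G4.4, which overlaps mes-6 and whose cover cannot be told apart from it there, and cks-1, which encodes a partner of cyclin-dependent kinases, were covered to 100% in both replicates. To the left, tag-77 lay to 100% under the mes-6 peak in replicate 1. In replicate 2 that peak held 22.2% of it, and all peaks together 81.8%. C28C12.1, at the far left, stood at 49.5% and 0%. The domain stopped short of pkg-2, a gene for a cGMP-dependent protein kinase 7.4 kb to the right, which had no peak in any list. Beyond it the next peak to the right was 23.2 kb away in replicate 1 and 24.1 kb in replicate 2.

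The mes-3 gene (F54C1.3), which encodes the remaining subunit of the complex, spans 6.4 kb on I. Its best peak ranked lower, in each replicate, than the best peak of any other of the 6 genes with one there. Cover was 66.1% and 30.7%, a mean of 48.4% ± 25.1 (SD, n = 2), and 6 series-wide peaks covered 28.7%. On I, where cover is common, 66.8% of the genes had less cover in replicate 1 and 62.9% in replicate 2. Replicate 1 had 2 peaks there, with scores above 26.3% and 21.9% of its list, and replicate 2 had 1, from 4998756 to 5000711 of I, above 33.8%. The series-wide peaks scored above 1.56% to 57.9% of their list and were 0.2 to 0.5 kb wide.

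Both replicates placed a peak over the middle of mes-3, and the last 3 of 10 equal parts, on the right, were at 0% in both. The shared part, 2.0 kb, took up the whole replicate 2 peak and 71.2% of the replicate 1 peak. On the right, dom-3, a gene of the DXO family of RNA decapping enzymes, had a separate low peak and was covered to 98.3% and 84.6%. On the left, dyf-1 and cil-7, both genes of cilia, had no replicate peak, and neither had F54C1.8 or sst-20 on the right.

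**Figure D3:**
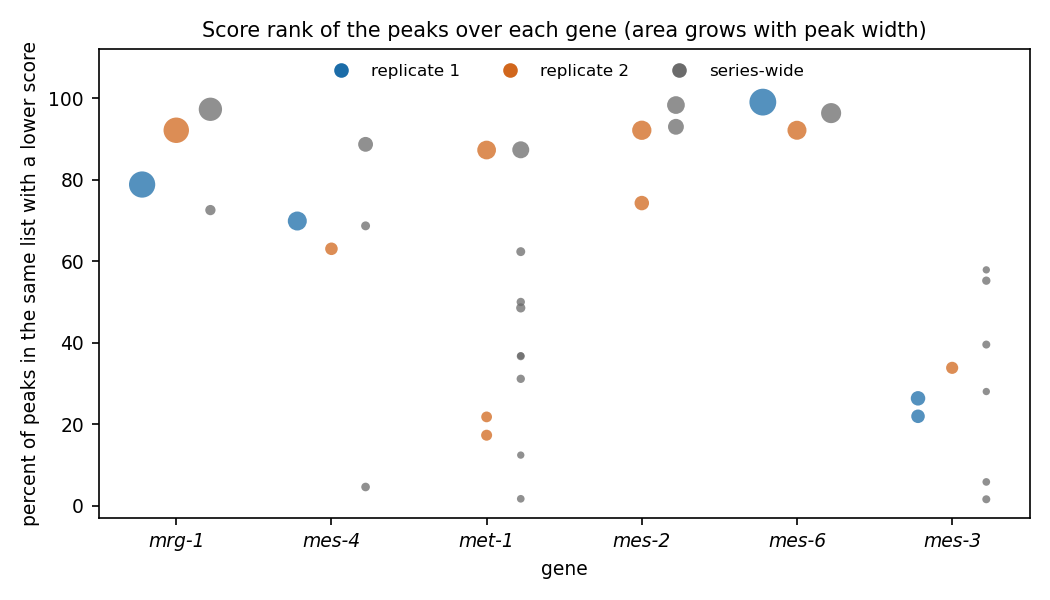
Rank of each peak over the 6 genes (x axis) as the percent of peaks in the same list with a lower score (y axis), coloured by list, with point area growing with peak width. The mes-6 and mrg-1 peaks of the replicates stand above 78.8% or more of their lists, the replicate peaks over mes-3 above 21.9% to 33.8%, and mes-2 and met-1 have no replicate 1 point.

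Ordered by mean cover, the genes ran mrg-1 and mes-6 (100% each), mes-4 (69.6%), mes-3 (48.4%), mes-2 (48.3%) and met-1 (35.7%). No neighbours in this order differed beyond the spread between replicates, the step from mes-6 to mes-4 included. By replicate 2 alone the order changed, to mrg-1 and mes-6, then mes-2 (96.6%), met-1 (71.4%), mes-4 (39.3%) and mes-3 (30.7%).

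Of the 38 protein-coding genes counted within 10 kb of the 6, 10 (26.3%) had a peak in replicate 1, where 30.2% of all protein-coding genes did, and 19 (50%) in replicate 2, where 28.1% did. The domains of mrg-1 and mes-6 were shared with their neighbours in both replicates, 4 of 5 neighbours for mrg-1 and 3 of 5 for mes-6 having a peak in each. With the gene spans as given, the replicate peaks over mes-4 and mes-3 touched no other gene, and of their neighbours only dom-3, beside mes-3, had a peak. Within 100 kb on each side, outside the gene, cover was lowest around mes-4 in replicate 2 and the series-wide list, at 9.75% and 11.3%. In replicate 1 it was 14.8% around mes-4 and lowest around mes-2, at 11.5%, where that list has its gap. Around mrg-1 it was 26.4% and 16.9% in replicates 1 and 2.

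Other histone methylation genes gave a background for these members. The lists were chosen with earlier results of these data known, and are described by counts with no test. Of 16 other histone methyltransferase genes, 10 had a peak in both replicates, against 24.4% of all protein-coding genes. In both, 8 were covered over at least 50%, against 17.0% of all. They included met-2, an H3K9 enzyme, and set-17, each at 100% in both replicates, and set-9 and set-26, which encode close relatives, also at 100%. The other extreme, with none in any of the 3 lists, was set-11, set-13 and set-30, the last on X. The H3K4 enzyme gene set-2 stood at 0% in replicate 1 and 99.1% in replicate 2, and set-1, for the H4K20 enzyme, at 0% and 100%.

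Among the 8 genes for subunits of COMPASS, the complex that methylates H3K4, 4 were at 0% in replicate 1 and covered over at least 50% in replicate 2: set-2, wdr-5.1, hcf-1 and swd-2.2. The other 4, dpy-30, cfp-1, rbbp-5 and ash-2, were covered over at least 50% in both. Of all protein-coding genes, 2.92% showed the first pattern and 17.0% the second. All 8 were covered over at least 50% in the series-wide list, against 22.5% of all protein-coding genes. The gaps in replicate 1 around them were not compared with those around mes-2 and met-1.

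Of 13 histone demethylase genes, 5 (38.5%) had a peak in both replicates, against 24.4% of all protein-coding genes. In both, 3 (23.1%) were covered over at least 50%, near the 17.0% of all. Those 3 were psr-1 (mean 100%), jmjd-1.2 (99.2%) and rbr-2, for an H3K4 demethylase (94.8%). The UTX and JMJD3 type H3K27 demethylase genes are on X. Of these, jmjd-3.1, jmjd-3.2 and jmjd-3.3 had no peak in any list, and utx-1 had 16.5% under a peak in replicate 1 and 0% in replicate 2, with 9.24% under series-wide peaks. The gene jmjd-1.2, on IV, encodes an enzyme that acts on H3K9 and H3K27 and was covered to 100% and 98.4%. Of the genes on X, 8.61% had a replicate 1 peak, 1.25% a replicate 2 peak and 8.94% a series-wide peak.

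Of 18 synMuv B and DREAM genes, which keep germline genes off in the soma, 10 had a peak in both replicates, against 24.4% of all protein-coding genes. In both, 9 were covered over at least 50%, against 17.0% of all. Those 9 included dpl-1, lin-37, lin-53 and lin-54, each at 100% in both. Both lin-9 and lin-52 had no peak in either replicate and were covered to 100% in the series-wide list. Of the 4486 genes covered over at least 50% in the series-wide list, 15.8% had no peak in replicate 1, 7.67% had none in replicate 2 and 2.72% had none in either, so a gene without replicate peaks can still be listed there.

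**Figure D4:**
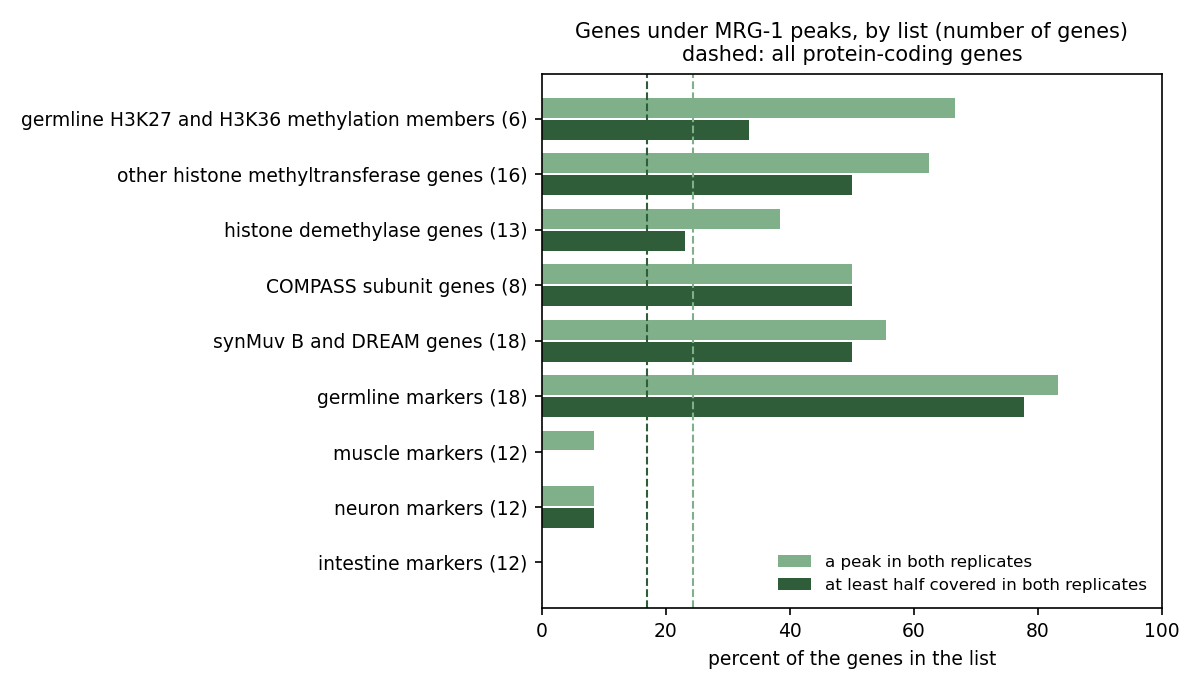
Percent of the genes in each list (x axis; number of genes in brackets) with a peak in both replicates (light bars) and with at least 50% of the gene covered in both (dark bars); dashed lines give the same for all protein-coding genes, 24.4% and 17.0%. The germline list stands highest, and the intestine list has no bar.

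The sample was checked against tissue markers in the same way. Of 18 germline markers, 15 had a peak in both replicates, against 24.4% of all protein-coding genes. Among them were pgl-1, gld-1, oma-1 and him-3 at 100% in both, and the median of the mean cover of the 18 was 100%. Of 12 muscle markers 1 had a peak in both, hlh-1 at 21.3% and 6.50%, and myo-3, unc-54 and unc-15 had none. Of 12 neuron markers 1 had a peak in both, snb-1 at 100% in each, and of 12 intestine markers none had a peak in any list. No germline marker is on X, where 1.14% of genes had a peak in both replicates, while 4 of the muscle, 1 of the neuron and 3 of the intestine markers are. In each replicate mrg-1 and mes-6 stood at the germline median of 100%. In replicate 1 mes-4 did too, and mes-2 and met-1 stood at 0%, the median of the muscle, neuron and intestine lists. That is also the median over all protein-coding genes, so it sets these 2 genes beside no tissue.

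The genes nearest to each of the 6 by cover were sought among 53 methyltransferase, demethylase, COMPASS and synMuv B genes, by the largest difference over the 3 lists. For mrg-1 these were prmt-5, set-26 and set-9, within 1.80 percentage points. For mes-6, 10 genes tied with no difference, among them dpl-1, dpy-30 and lin-37. For mes-2, set-2 came first at 2.52 points, and lin-36, set-1, wdr-5.1 and swd-2.2 tied at 3.39 points; all 5 were without a replicate 1 peak. No gene came closer than 19.5 points to mes-3, 24.2 to mes-4 or 24.5 to met-1, whose nearest were dot-1.1, jmjd-5 and lin-35. Such likeness rests on 2 replicates and a further list that may not be independent of them.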

How the data were processed

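Per the labels' protocols, ground frozen adults were fixed with 1% formaldehyde for 10 minutes, sonicated and precipitated. The submitters' processing notes name BWA and the ce10 genome. Per the files' source column, the replicate peaks came from MACS and the series-wide peaks from MACS v2; how thresholds and input were used, and whether samples were pooled, is not given in the sources used here. The deposited first and last base of each peak are on WormBase WS220, per the file headers. The score is the one the authors deposited, with no definition given, and only ranks peaks within a list.

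From these, the percent of each gene span under at least 1 peak was computed for 19971 protein-coding genes with Python 3.11.15, numpy 2.4.6 and pandas 2.3.3, and tested on simulated peaks. A peak over 1 bp counted as an overlap. Gene spans are those of the WBcel235 table of RefSeq, used within about 200 bp of WS220, and its coordinates are not printed. The table holds no strand and no sequence, so cover was read from the low to the high coordinate, and the planned search of promoters for motifs was not run. No test was made: 1 condition with 2 peak lists allows none, and lists are described beside all genes. The members, lists and the rule for named genes were chosen with earlier results of these data known. That rule named the 6 genes, neighbours within 10 kb with a symbol, the 4 most and 4 least covered genes of each list, and the 3 nearest to each member by cover. A gene named outside it was chosen after its values were seen. Figures were drawn with matplotlib 3.10.9.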

Additional observations from a re-analysis of the deposited data

How the results depend on the processing

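Moving or resizing the gene spans by 200 bp, which covers the difference between the builds, left 4 genes with a peak in both replicates and 2 covered over at least 50% in both, and moved no gene's mean cover by more than its replicate SD. The number covered over at least 50% in both was 4 when at least 25% was asked and 5 in the series-wide list. Leaving out a replicate gave 4 to 4 genes, but not the same ones: mes-3 and mes-4 passed in replicate 1, mes-2 and met-1 in replicate 2. Leaving out a replicate gave 4 to 6 genes with any peak. With the top 50% of each list by score, 3 genes had a peak in both replicates: mes-3 lost all its peaks (0%), since they score low. The mean cover of met-1 fell from 35.7% to 21.9%. In the series-wide list mrg-1 stood at 96.4%; the cause was not tested. With 1 replicate left out, the mean cover ranged from 0 to 96.6% for mes-2, 0 to 71.4% for met-1, 39.3 to 100% for mes-4 and 30.7 to 66.1% for mes-3. No paired analysis was possible because input values, the only ones that share a number with a ChIP sample, were not analysed here. The depth behind each list is unknown. Replicate 1 had fewer peaks than replicate 2, 2769 against 3895, but covered more, 16.7 against 13.1 Mb. It held peaks over mes-3 that scored above only 26.3% and 21.9% of its list. It had none over mes-2 or met-1, where the highest replicate 2 peaks scored above 92.1% and 87.3% of theirs. Whether depth has a part in these missing calls was not tested.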

Other observations

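Other genes of the lists were also missing from 1 replicate, some in the opposite sense to mes-2 and met-1. The genes for the germ granule helicases glh-1 and glh-4, both on I, stood at 100% in replicate 1 but 0% in replicate 2, and series-wide peaks covered 100% of both. The gene spo-11, for the enzyme that makes meiotic double-strand breaks, had no peak in either replicate although series-wide peaks covered 100% of it. In the synMuv B list, hpl-2, which encodes an HP1 protein, stood at 100% in replicate 1 and 0% in replicate 2, and lin-35, which encodes the worm retinoblastoma protein, at 0% and 72.4%.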
